A study of Saccharomyces cerevisiae with 42 samples.

Results

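The small (40S) subunit of the cytosolic ribosome was followed through its RPS genes, which encode the subunit's proteins. The genes were taken by their symbols in the platform annotation, and only probe sets assigned to a single gene were kept, with the brightest over the 42 arrays standing for a gene that had several. This gave 33 of the 5656 genes measured, and another 22 RPS genes were covered only by probe sets shared between near-identical copies. The arrays measured Saccharomyces cerevisiae RNA from log-phase cultures in YPD, a rich medium, before and during heat stress at 39 °C, with 2 arrays at each of 7 times in each of 3 strains. The strain dpl1D carries KanMX, a drug-resistance cassette, at DPL1, the gene of the lyase that breaks down phosphorylated long-chain sphingoid bases. The strain lcb4D/lcb5D carries the cassette at both LCB4 and LCB5, which encode the kinases that make those phosphorylated bases. JK939a carries neither change and is set against both. MAT α, HMLa and the alleles leu2-3 112, ura3-52, rme1, trp1 and his4 are common to the genotypes of the 3 strains. The labels do not say how many clones of a strain were used, or whether the arrays of a group came from separate cultures, so p-values measure the spread between these arrays, which may be technical.

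Yeast ribosomal protein genes are among the most strongly transcribed genes of a growing cell, and most of them exist as a pair of near-identical copies, named A and B, left by an ancient genome duplication. Their promoters are bound by Rap1 and by the Fhl1 and Ifh1 pair, and nutrient signalling through TORC1 and protein kinase A sets their activity. Heat and other stresses are known to lower these transcripts for a time as part of the environmental stress response. Within the 40S subunit, some proteins of the head sit near the decoding site and the channel where mRNA enters, and some proteins of the body and platform sit near the site where mRNA leaves and at the back of the subunit. The division is not strict. RPS2, at the mRNA entry, is listed here with the body and platform, and RPS28A and RPS28B, at the mRNA exit, with the head.

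The deleted genes were checked first. DPL1 read 2.58 to 3.63 on the log2 scale in dpl1D and 8.72 to 9.81 in JK939a. LCB4 read 2.53 to 3.68 in lcb4D/lcb5D and 4.49 to 5.47 in JK939a, and LCB5 read 2.31 to 3.48 in lcb4D/lcb5D and 4.98 to 7.66 in JK939a. MF(ALPHA)1, which encodes the pheromone of MAT α cells, read 7.74 to 12.28 in JK939a, and STE2, a receptor made by MAT a cells, 2.72 to 4.14. HSP26, a small heat-shock chaperone, changed by 7.65 in dpl1D, 5.03 in lcb4D/lcb5D and 6.17 in JK939a on average over the heat times. One JK939a array stands apart. A probe set without a gene name read 11.83 to 13.03 in the 28 arrays of the deletion strains and 3.08 to 4.27 in 13 JK939a arrays. It read 8.15 in replicate 1 of JK939a before heat, so the main results for JK939a are also given without that array. The replicates also differ in RNA measures. The difference between the 3′ and 5′ control probe sets of SRB4 was 1.37 to 3.73 in arrays numbered 2 and 0.026 to 1.20 in arrays numbered 1. That of ACT1 overlapped between them. The 18S rRNA control read 12.70 to 13.44 in arrays numbered 1 and 4.57 to 12.41 in arrays numbered 2. In arrays numbered 2 the 25S rRNA control before heat read 6.07 in dpl1D, 6.89 in lcb4D/lcb5D and 6.77 in JK939a. Under heat it ran from 11.12 to 12.85, 6.40 to 11.71 and 7.96 to 12.99. The 33 genes read lower in replicate 2 than in replicate 1 for all but 4, with a median of -0.30 over the 21 groups, against 0.11 over all genes. The part of these differences in the results below was not tested.

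Heat lowered the small subunit transcripts in every strain. Averaged over the 6 heat times, 30 of 33 genes were called lower than before heat in dpl1D, 33 in lcb4D/lcb5D and 33 in JK939a, and 0 were called higher (limma, adjusted p under 0.05 over 5656 genes, two-sided). Of all genes tested, 26.6%, 25.2% and 24.5% were called lower in the same comparisons, and 20.6%, 19.1% and 21.8% higher. The median change of the 33 genes was -1.60 in dpl1D, -1.57 in lcb4D/lcb5D and -1.81 in JK939a on the log2 scale, against medians of -0.05, -0.02 and -0.02 over all genes. The changes ran from -2.52 to -0.53 in dpl1D, from -2.54 to -0.85 in lcb4D/lcb5D and from -2.93 to -1.12 in JK939a, so no gene of the 33 had a positive mean change in any strain. In 16 genes in dpl1D, 21 in lcb4D/lcb5D and 19 in JK939a, each of the 12 heated arrays lay below both arrays before heat, beside 21.7%, 18.7% and 15.8% of all genes. Without replicate 1 of JK939a before heat, the median change of the 33 genes in JK939a was -1.79, against -0.08 over all genes. In that fit the genes no longer called lower in JK939a were RPS14A, RPS28B, RPS29A and RPS29B.

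**Figure D1:**
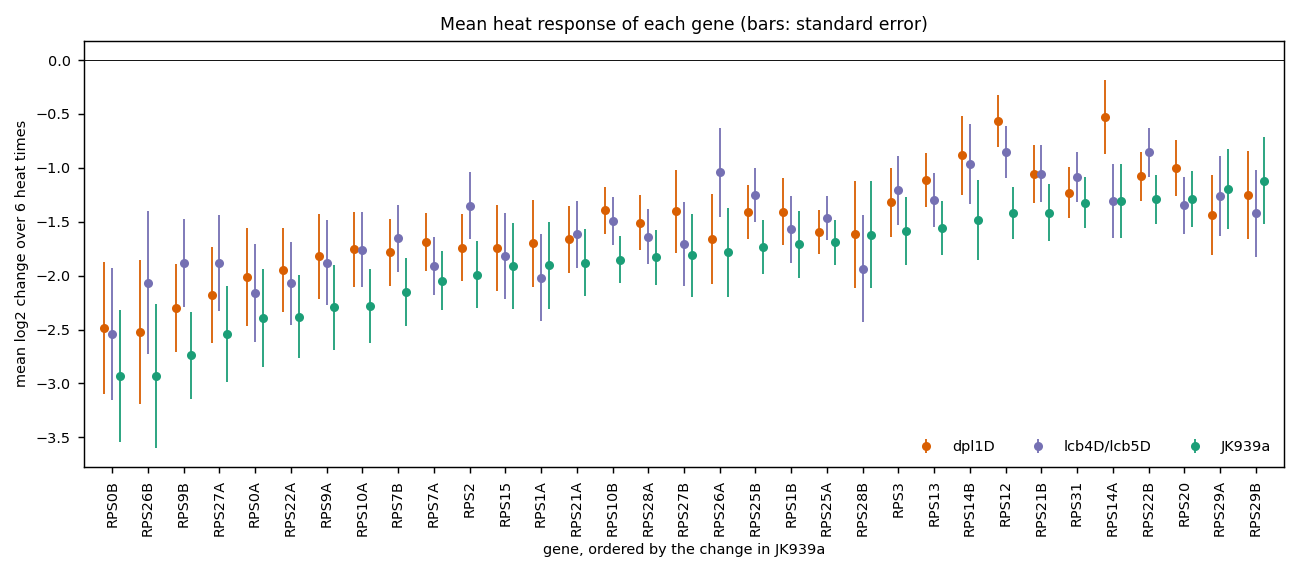
Mean log2 change over the 6 heat times relative to before heat for each of the 33 genes (y axis), ordered along the x axis by the change in JK939a, with dpl1D, lcb4D/lcb5D and JK939a side by side. Points are limma estimates and bars are standard errors. Each point lies below 0, and the JK939a values run from -2.93 for RPS0B to -1.12 for RPS29B.

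The values were normalised so that each array has nearly the same distribution, and the falls are therefore relative to the rest of the transcripts on an array. Centring the arrays on the hybridisation controls, which are added to each sample after labelling, moved the median of all genes to 0.16 in dpl1D, 0.22 in lcb4D/lcb5D and 0.26 in JK939a. The 33 genes stayed below 0 in each strain under it, as they did under median centring and cyclic loess, but 11, 11 and 17 were then called lower. Of all 5656 genes, 390, 305 and 351 were called lower under hybridisation-control centring. Of all genes called, 57.8%, 57.2% and 61.4% were higher under that scaling, against 43.7%, 43.1% and 47% with the deposited values.

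The fall was small at 5 min and deeper from 10 min on. At 5 min the median change was -0.27 in dpl1D, -0.36 in lcb4D/lcb5D and -0.38 in JK939a, and limma called 0 genes in each, with 0, 1 and 1 at an unadjusted p under 0.05. With replicate number as a block across strains or within each strain, 1 gene was called lower at 5 min in lcb4D/lcb5D, beside 13% and 13.8% of all genes. At 5 min 8.06%, 9.03% and 7.23% of all genes were already called lower. In dpl1D the genes called lower numbered 6, 29, 32, 31 and 29 at 10, 15, 20, 25 and 30 min, beside 19.9%, 22.3%, 24.7%, 23.7% and 20.7% of all genes. In lcb4D/lcb5D they numbered 27, 32, 32, 30 and 25, beside 23.7%, 22.9%, 21.1%, 19.1% and 13.5% of all genes. In JK939a they numbered 14, 32, 33, 33 and 31, beside 18.8%, 22.6%, 22.4%, 21.6% and 17.8%. Some of these counts rest on single arrays. The 10 min count in JK939a was 4 and 3 without replicate 1 or 2 before heat, and 5 and 2 without replicate 1 or 2 at 10 min. In dpl1D the 10 min count was 2 without replicate 2 before heat, 2 without replicate 1 at 10 min, and 10 or 12 with replicate number as a block, across strains or within each strain, beside 24.2% and 25.1% of all genes. The JK939a counts at 15, 20, 25 and 30 min were 28, 30, 31 and 28 without replicate 1 before heat. The dpl1D count at 15 min was 18 without replicate 1 of that time, and the lcb4D/lcb5D count at 30 min was 4 without replicate 2 of that time and 14 and 10 without replicate 1 or 2 before heat. Between successive heat times, the 5 to 10 min step was called for 1 gene in dpl1D, 16 in lcb4D/lcb5D and 1 in JK939a, beside 3.27%, 6.77% and 1.73% of all genes called lower. In the 4 later steps limma called 0 genes in each strain. At an unadjusted p under 0.05 the 10 to 15 min step held 16 genes in dpl1D, 1 in lcb4D/lcb5D and 29 in JK939a, and the steps after it 0 to 7. The shares of all genes at an unadjusted p under 0.05 are not given for these steps. At the adjusted threshold, 0%, 0% and 0% of all genes were called lower in the 10 to 15 min step. With replicate number as a block across strains or within each strain, 1 or 4 genes were called in that step of JK939a, beside 0.194% and 0.477% of all genes. The lowest mean fell at 20 min for 17 of 33 genes in dpl1D and 13 in lcb4D/lcb5D, and at 25 min for 16 in JK939a. At 30 min RPS14B and RPS29B were the 2 genes not called in JK939a, RPS14A, RPS14B, RPS27A and RPS29B the 4 in dpl1D, and RPS0B, RPS2, RPS14B, RPS26A, RPS26B, RPS28B, RPS29A and RPS29B the 8 in lcb4D/lcb5D.

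**Figure D2:**
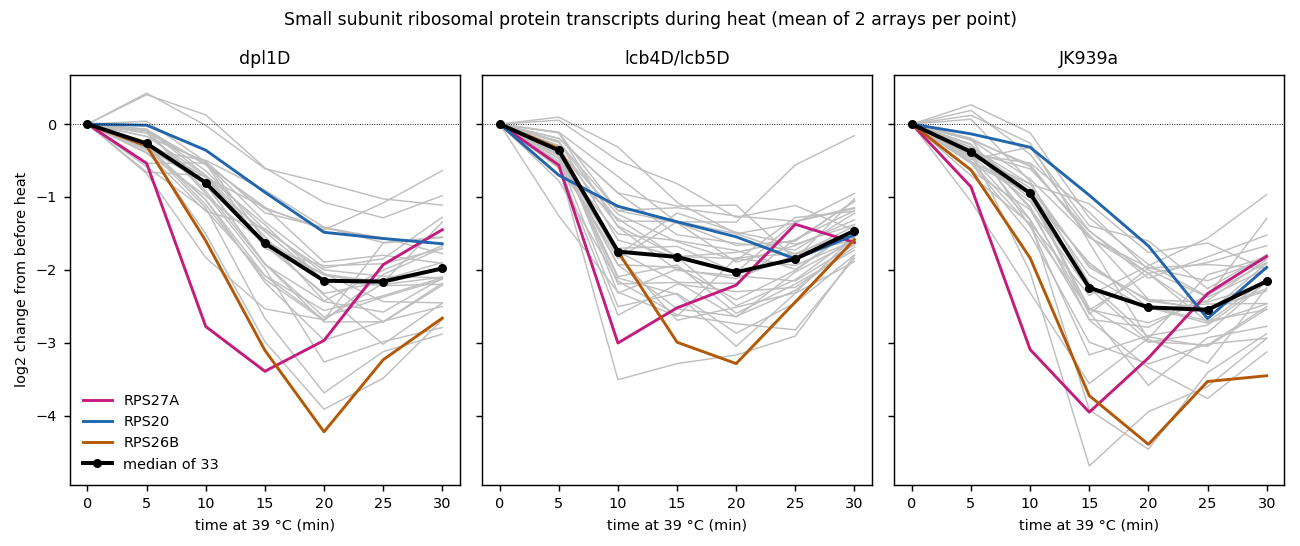
Log2 change from before heat (y axis) against time at 39 °C in minutes (x axis) in dpl1D, lcb4D/lcb5D and JK939a. Lines are means of 2 arrays for single genes, with RPS27A, RPS20 and RPS26B in colour, and the black line is the median of the 33 genes. The median is -0.80, -1.75 and -0.95 at 10 min and -1.98, -1.46 and -2.16 at 30 min in the 3 strains in that order. RPS27A drops early and turns upward, and RPS20 drops late in dpl1D and JK939a.

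The largest falls in JK939a were those of RPS0B, RPS26B, RPS9B and RPS27A, which all belong to the body and platform. RPS0B (YLR048W, chromosome XII) encodes protein uS2 at the back of the subunit. In JK939a it read 12.15 and 12.77 before heat, 11.81 and 12.38 at 5 min, 10.59 and 10.27 at 10 min, 8.65 and 6.90 at 15 min, 8.93 and 8.10 at 20 min, 9.62 and 8.10 at 25 min, and 10.40 and 8.64 at 30 min. Its 12 heated arrays overlapped the arrays before heat at 5 min only, and from 15 min on replicate 2 was the lower at each time. The mean change was -2.93 ± 0.61, adjusted p = 0.000308 (SE; limma), a fall to a level 7.62-fold below that before heat, and it was -2.48 ± 0.61 in dpl1D and -2.54 ± 0.61 in lcb4D/lcb5D. RPS26B (YER131W, chromosome V) encodes eS26, a platform protein that touches mRNA upstream of the start codon. It read 10.38 and 10.44 before heat, 9.95 and 9.61 at 5 min, 9.0 and 8.15 at 10 min, 6.91 and 6.46 at 15 min, 6.94 and 5.10 at 20 min, 8.15 and 5.61 at 25 min, and 8.51 and 5.40 at 30 min, and each heated array lay below both arrays before heat. Its mean change in JK939a was -2.93 ± 0.67, adjusted p = 0.000711. At each heat time replicate 2 lay below replicate 1, and the distance was largest from 20 min on. RPS9B (YBR189W, chromosome II), which encodes uS4, a body protein that binds early in assembly, read 11.93 and 11.98 before heat, 11.41 and 11.59 at 5 min, 10.73 and 10.55 at 10 min, 7.75 and 8.32 at 15 min, 7.75 and 7.23 at 20 min, 9.24 and 7.85 at 25 min, and 9.98 and 8.18 at 30 min. Each heated array lay below both before heat, and the mean change was -2.74 ± 0.41, adjusted p = 4.13e-06. RPS27A (YKL156W, chromosome XI) encodes eS27, a zinc-binding platform protein. It read 11.25 and 11.28 before heat, 10.23 and 10.58 at 5 min, 8.79 and 7.55 at 10 min, 7.66 and 6.96 at 15 min, 8.73 and 7.38 at 20 min, 9.33 and 8.54 at 25 min, and 9.93 and 8.97 at 30 min, with a mean change of -2.54 ± 0.45, adjusted p = 3.83e-05. Its lowest pair of values came at 15 min, and both replicates were higher at each later time than at 15 min. RPS27A was the single gene called in the 5 to 10 min step of dpl1D (-2.24 ± 0.58, adjusted p = 0.0239) and of JK939a (-2.23 ± 0.58, adjusted p = 0.0411), and it was also called in lcb4D/lcb5D (-2.44 ± 0.58, adjusted p = 0.00934). The call in JK939a was lost when any of 12 single arrays was left out, among them the JK939a arrays at 5 and 10 min, and that in dpl1D when any of the 4 arrays of the step was left out.

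The smallest falls in JK939a were those of RPS29B, RPS29A, RPS20 and RPS22B. RPS29A and RPS29B encode uS14, a zinc-binding protein of the head. RPS29B (YDL061C, chromosome IV) read 11.86 and 10.80 before heat, 11.67 and 11.53 at 5 min, 11.21 and 11.22 at 10 min, 9.78 and 10.31 at 15 min, 9.73 and 9.09 at 20 min, 9.79 and 8.15 at 25 min, and 10.69 and 9.39 at 30 min. The arrays at 5 and 10 min lay between the arrays before heat, which themselves stood 1.06 log2 units apart. Its mean change was -1.12 ± 0.40, adjusted p = 0.0249. RPS29A (YLR388W, chromosome XII) read 12.30 and 11.40 before heat, 12.05 and 12.02 at 5 min, 11.58 and 11.29 at 10 min, 10.23 and 10.54 at 15 min, 10.04 and 9.42 at 20 min, 10.41 and 9.64 at 25 min, and 10.96 and 9.69 at 30 min, with a mean change of -1.19 ± 0.37, adjusted p = 0.00989. Here both arrays at 5 min and replicate 1 at 10 min lay between the arrays before heat. Without replicate 1 of JK939a before heat, the changes of RPS29B and RPS29A were -0.59 and -0.75 (limma adjusted p = 0.421 and 0.259). RPS20 (YHL015W, chromosome VIII) encodes uS10 of the head and read 11.61 and 11.22 before heat, 11.14 and 11.42 at 5 min, 11.11 and 11.08 at 10 min, 10.15 and 10.72 at 15 min, 9.47 and 10.01 at 20 min, 8.37 and 9.12 at 25 min, and 9.89 and 9.01 at 30 min. Its mean change was -1.29 ± 0.26, adjusted p = 0.000211. At 10 min its change was -0.32 (adjusted p = 0.527), and its lowest value came at 25 min in replicate 1 and at 30 min in replicate 2. RPS22B (YLR367W, chromosome XII) encodes uS8 of the body and read 10.82 and 11.13 before heat, 10.20 and 10.87 at 5 min, 10.05 and 10.25 at 10 min, 9.63 and 10.14 at 15 min, 9.18 and 9.25 at 20 min, 9.41 and 9.27 at 25 min, and 9.27 and 8.70 at 30 min, with a mean change of -1.29 ± 0.23, adjusted p = 4.04e-05. Its lowest arrays were those at 20 to 30 min.

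In dpl1D, RPS12, RPS14A and RPS14B were not called in the mean heat response. RPS12 (YOR369C, chromosome XV) encodes eS12, in the beak of the head. It ranged from 10.22 to 12.43 with a median of 11.29 over the heated dpl1D arrays, against 11.71 and 12.34 before heat. In JK939a it ranged from 9.90 to 12.29 with a median of 11.25, against 12.64 and 12.64 before heat. The mean change was -0.57 ± 0.24, adjusted p = 0.0544 in dpl1D and -1.42 ± 0.24, adjusted p = 2.45e-05 in JK939a. Replicate 1 of dpl1D before heat was the lowest of the 6 arrays before heat for this gene, and the difference between the strains was not called (given below). RPS14A and RPS14B encode uS11, a platform protein. Their changes in dpl1D were -0.53 ± 0.34, adjusted p = 0.217 and -0.88 ± 0.37, adjusted p = 0.0512, and in JK939a they were -1.31 ± 0.34, adjusted p = 0.00265 and -1.48 ± 0.37, adjusted p = 0.00165. With replicate number as a block, RPS12 and RPS14B were also called in dpl1D, which gave 32 of 33, beside 31.1% or 31.7% of all genes, with the block across strains or within each strain.

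By position in the subunit, 12 of the 13 head genes were called lower in dpl1D, 13 in lcb4D/lcb5D and 13 in JK939a, and of the 20 body and platform genes 18, 20 and 20. The median change of the head genes was -1.41, -1.42 and -1.62 in dpl1D, lcb4D/lcb5D and JK939a, and that of the body and platform genes -1.69, -1.68 and -1.95. Without replicate 1 of JK939a before heat, these medians in JK939a were -1.59 and -2.02, and fewer genes of each list were called lower. Among the head genes, RPS10A (eS10) changed by -2.28 ± 0.35 and RPS15 (uS19, near the decoding site) by -1.91 ± 0.40 in JK939a. RPS3, whose uS3 lines the channel where mRNA enters, changed by -1.59 ± 0.32, and RPS31, made as a fusion with ubiquitin, by -1.32 ± 0.23. On the body and platform, RPS2 (uS5, at the mRNA entry) changed by -1.99 ± 0.31, RPS13 (uS15) by -1.56 ± 0.25, RPS1A and RPS1B (eS1) by -1.90 ± 0.40 and -1.71 ± 0.31, and RPS7A and RPS7B (eS7) by -2.05 ± 0.27 and -2.15 ± 0.31. The 7 genes without a paralogue (RPS2, RPS3, RPS12, RPS13, RPS15, RPS20 and RPS31) had a median change of -1.56 in JK939a and -0.58 at 10 min, when 0 of them were called (limma). The medians of the lists differ by less than the span of the genes within each list, and the difference was not tested.

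For 13 families both copies were measured. In JK939a the copies differed most in their mean heat response for RPS26, RPS22, RPS27 and RPS0, and least for RPS25 and RPS29. These differences are descriptions of single probe sets and were not tested. RPS26A changed by -1.78 and RPS26B by -2.93 in JK939a, and the fall of RPS26B was also the larger in dpl1D and lcb4D/lcb5D (A minus B 0.86 and 1.02). RPS26A read 13.77 and 14.34 before heat, 13.41 and 14.31 at 5 min, 12.81 and 12.49 at 10 min, 11.68 and 11.33 at 15 min, 11.38 and 12.62 at 20 min, 11.84 and 11.07 at 25 min, and 12.52 and 11.77 at 30 min. Replicate 2 at 5 min lay between the arrays before heat, and all later arrays lay below both. A second probe set of RPS26A, with the suffix f, gave -1.14 in JK939a, which is farther from RPS26B. For RPS22 the A copy had the larger fall: RPS22A changed by -2.38 and RPS22B by -1.29 in JK939a. RPS22A read 13.19 and 13.59 before heat, 12.49 and 13.21 at 5 min, 12.01 and 11.75 at 10 min, 10.69 and 10.11 at 15 min, 10.34 and 9.86 at 20 min, 10.91 and 9.84 at 25 min, and 11.17 and 9.73 at 30 min. Each heated array lay below both before heat except 1 at 5 min. Other probe sets of RPS22B gave -1.70 and -1.18 in JK939a, so the size of the difference between the copies depends on the probe set. The A copy also had the larger fall in dpl1D (-0.87) and in lcb4D/lcb5D (-1.22). RPS22A lies beside RPS14B on chromosome X.

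The RPS27 copies, both on probe sets without a suffix letter, parted early. At 10 min in JK939a RPS27A had changed by -3.09 and RPS27B by -0.94, and at 30 min by -1.81 and -1.86. RPS27B read 12.60 and 12.54 before heat, 12.18 and 12.19 at 5 min, 11.83 and 11.43 at 10 min, 10.45 and 9.60 at 15 min, 10.19 and 9.50 at 20 min, 10.76 and 9.54 at 25 min, and 11.26 and 10.16 at 30 min. Its lowest value came at 20 min in both replicates, and both were higher at 30 min. The RPS0 copies, also on probe sets without a suffix letter, parted before they came together: A minus B of the change in JK939a was 0.90 at 10 min, 0.61 at 20 min and -0.19 at 30 min. RPS0A read 11.44 and 11.50 before heat, 11.00 and 11.31 at 5 min, 10.41 and 10.28 at 10 min, 8.78 and 8.79 at 15 min, 8.42 and 7.85 at 20 min, 8.44 and 6.97 at 25 min, and 9.43 and 7.26 at 30 min. From the middle heat times (15 and 20 min) to the late ones (25 and 30 min), RPS0A changed by -0.43 and RPS0B by 1.05 in JK939a, and in each of the 6 courses of a strain and a replicate RPS0A moved down relative to RPS0B. In replicates 1 and 2 of JK939a RPS0A itself changed by 0.34 and -1.20, and RPS0B by 1.22 and 0.88. A second single-gene probe set of each copy gave -0.19 for RPS0A and 1.10 for RPS0B. The same 6 of 6 direction was seen for RPS14, where RPS14A changed by -0.53 and RPS14B by 0.88 in JK939a, and for RPS26, where RPS26A changed by -0.70, -0.32 and 0.05 and RPS26B by 0.72, 1.13 and 0.57 in dpl1D, lcb4D/lcb5D and JK939a. In RPS10, RPS21 and RPS27 the A copy moved up relative to the B copy in 6 of 6 courses. The RPS25 copies kept together: RPS25A read 12.08 and 12.05 before heat, 11.55 and 11.95 at 5 min, 11.27 and 11.21 at 10 min, 9.99 and 10.20 at 15 min, 9.57 and 9.74 at 20 min, 9.91 and 9.33 at 25 min, and 10.27 and 9.48 at 30 min, and RPS25B read 11.73 and 11.85 before heat, 11.38 and 11.51 at 5 min, 10.94 and 10.88 at 10 min, 10.22 and 9.49 at 15 min, 9.46 and 9.27 at 20 min, 9.47 and 9.06 at 25 min, and 9.97 and 9.03 at 30 min. Their mean changes were -1.69 ± 0.21 and -1.74 ± 0.25. The RPS25 and RPS29 probe sets carry the suffix f, which the manufacturer gave to probe sets that share probes within a gene family, so signal of one copy may enter the value of the other. Of the 33 genes, 17 were read by probe sets without a suffix letter, 10 by f sets and 6 by i sets, which hold fewer probes. Second probe sets that differed from the one used were those of RPS9B (-3.32 against -2.74 in JK939a) and RPS25B (-0.96 against -1.74), and a second set of RPS10B was near the lower end of the scale at a mean of 2.04.

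**Figure D3:**
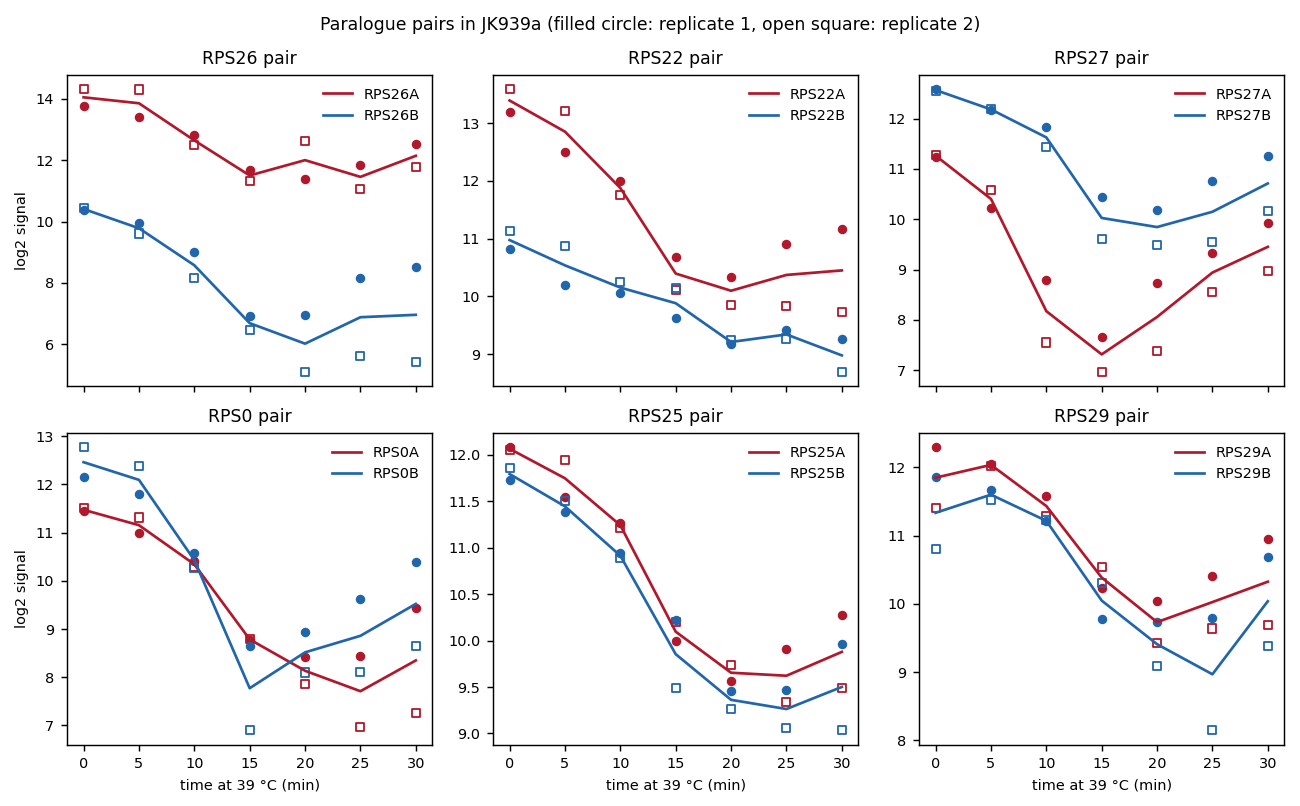
Log2 signal (y axis) against time at 39 °C in minutes (x axis) in JK939a for 6 paralogue pairs, with the A copy in red and the B copy in blue. Filled circles are replicate 1, open squares replicate 2, and lines join the means. RPS27A reaches its lowest mean at 15 min and RPS0B turns upward after 15 min while RPS0A goes on falling to 25 min.

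At 10 min lcb4D/lcb5D had the lowest median change of the 3 strains. Its genes had changed by a median of -1.75, against -0.95 in JK939a, and by -0.80 in dpl1D. Both lcb4D/lcb5D arrays at 10 min lay below both JK939a arrays for 27 of 33 genes and below both dpl1D arrays for 28, beside 17.9% and 17.8% of all genes. The difference in heat response at 10 min was called for 0 genes by limma, with 2 against JK939a at an unadjusted p under 0.05 and a median difference of -0.68. Against dpl1D it was also called for 0 genes, with 2 at an unadjusted p under 0.05 and a median of 0.79 for dpl1D minus lcb4D/lcb5D, and 0% of all genes were called in either comparison. Later the order of lcb4D/lcb5D and JK939a was the other way round: the median difference in response was 0.79 at 25 min and 0.77 at 30 min, with 0 genes called at either time and 2 and 3 at an unadjusted p under 0.05, beside 0.0177% and 0% of all genes called. The 2 replicates differed: the median change at 10 min was -1.10 in replicate 1 of lcb4D/lcb5D and -2.07 in replicate 2, while it was -0.91 and -1.02 in JK939a and -0.80 and -0.80 in dpl1D. RPS0B read 10.12 and 7.22 in lcb4D/lcb5D at 10 min, against 10.59 and 10.27 in JK939a. RPS14A read 9.80 and 7.58 in lcb4D/lcb5D, against 10.43 and 10.53 in JK939a. In both genes the low value is replicate 2, the array with the largest SRB4 3′ to 5′ difference of the 42 (3.73). The part of that array's RNA in the result was not tested. Without it 9 genes were called lower at 10 min in lcb4D/lcb5D instead of 27, and in the 5 to 10 min step 0 instead of 16. That step's count was 7 and 0 without replicate 1 or 2 at 5 min.

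**Figure D4:**
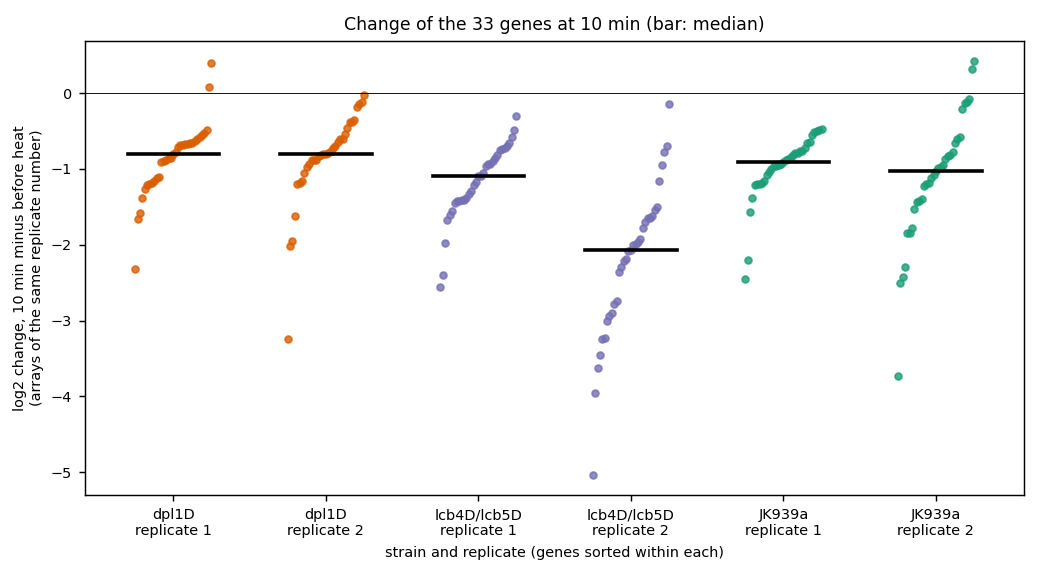
Log2 change at 10 min relative to the array of the same replicate number before heat (y axis) for the 33 genes, by strain and replicate (x axis), with genes sorted within each group and the median as a bar. The medians are -0.80 and -0.80 in dpl1D, -1.10 and -2.07 in lcb4D/lcb5D, and -0.91 and -1.02 in JK939a, so replicate 2 of lcb4D/lcb5D is the lowest.

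After 20 min the estimated changes of the genes differed in sign, and a difference in course between genes was not tested. From the middle to the late heat times the median change was -0.13 in dpl1D, 0.34 in lcb4D/lcb5D and -0.13 in JK939a, and single genes in JK939a ran from -0.99 (RPS20) to 1.51 (RPS27A). Limma called 0 genes in dpl1D and in lcb4D/lcb5D, where 2 and 4 had an unadjusted p under 0.05, and it called RPS20 lower in JK939a (-0.99 ± 0.24, adjusted p = 0.0498). Of all genes, 0.0707%, 3.82% and 0.743% were called in either direction. Leaving out 1 array at a time gave 0 to 3 genes in JK939a and 0 in 30 of the 42 fits, among them the fit without replicate 1 before heat. In dpl1D such fits gave up to 2 (without replicate 1 at 15 or at 20 min) and in lcb4D/lcb5D up to 1 (without replicate 2 at 30 min). The genes of next smallest p in JK939a were RPS27A (1.51 ± 0.41, adjusted p = 0.0788), RPS9A (1.30 ± 0.36, adjusted p = 0.08) and RPS13 (-0.67 ± 0.23, adjusted p = 0.167). RPS9A read 6.19 and 5.84 at 15 min, 7.40 and 5.87 at 20 min, 7.78 and 7.24 at 25 min, and 8.20 and 7.29 at 30 min, so both replicates were higher at 25 and 30 min than at 15 min. RPS13, by contrast, read 10.68 and 10.95 at 15 min, 10.28 and 10.19 at 20 min, 9.60 and 9.53 at 25 min, and 10.67 and 9.64 at 30 min. Here replicate 2 was lower at both late times than at both middle times. In dpl1D the 4 genes of smallest p were RPS27A (1.49 ± 0.41, adjusted p = 0.193), RPS9A (1.02 ± 0.36, adjusted p = 0.277), RPS15 and RPS21A, the last 2 with changes of -0.75 and 0.53. In lcb4D/lcb5D they were RPS14B (0.98 ± 0.34, adjusted p = 0.101), RPS21A (0.80 ± 0.29, adjusted p = 0.118), RPS7A and RPS27A, the last 2 with changes of 0.63 and 0.87. With replicate number as a block across strains, RPS27A rose late in JK939a (adjusted p = 0.00983) and in dpl1D (adjusted p = 0.0207), RPS9A rose in JK939a (adjusted p = 0.0224), and RPS14B and RPS21A rose in lcb4D/lcb5D (limma adjusted p = 0.0225 and 0.035), while RPS20 fell in JK939a (adjusted p = 0.0179). With the block within each strain, RPS14B was also called in JK939a (adjusted p = 0.0448). With the block across strains 1.27%, 11.6% and 5% of all genes were called in dpl1D, lcb4D/lcb5D and JK939a, and with the block within each strain 2.78%, 13.5% and 6.84%.

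In the late comparison the replicates moved opposite ways for 26 of 33 genes in dpl1D, 6 in lcb4D/lcb5D and 15 in JK939a. In replicate 1 the median late change was 0.39 in dpl1D, 0.31 in lcb4D/lcb5D and 0.47 in JK939a, and in replicate 2 it was -0.56, 0.45 and -0.40. In dpl1D 31 of 33 genes moved up in replicate 1 and 5 in replicate 2; in JK939a 23 and 8 did, and in lcb4D/lcb5D 25 in each. RPS27A moved up in both replicates of each strain, by 1.26 and 1.72 in dpl1D, 1.06 and 0.67 in lcb4D/lcb5D, and 1.44 and 1.59 in JK939a. The 18S rRNA control of replicate 2 also moved between these times. At 15, 20, 25 and 30 min it read 5.68, 6.49, 12.40 and 12.41 in dpl1D. It read 7.20, 4.82, 10.49 and 5.25 in lcb4D/lcb5D, and 11.18, 4.57, 9.84 and 5.77 in JK939a. Its part in the late changes was not tested. Genes with a more negative change at 10 min tended to have a more positive late change. Across the 33 genes, Pearson's r between the change at 10 min and the late change was -0.75 in dpl1D, -0.62 in lcb4D/lcb5D and -0.82 in JK939a, and Spearman's rho was -0.57, -0.64 and -0.77. When the early change was taken from replicate 1 and the late change from replicate 2, r was -0.48, -0.58 and -0.82, and the other way round -0.78, -0.40 and -0.62. These are correlations across genes, which are not independent replicates, and the early and late values of a gene share its probe set and baseline brightness.

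**Figure D5:**
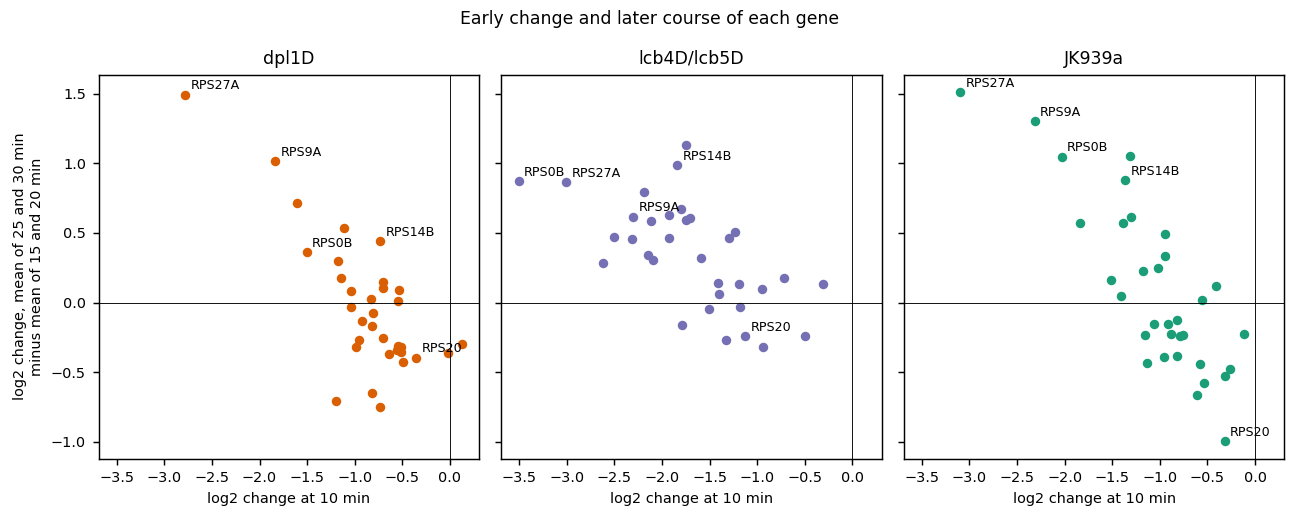
Late change (mean of 25 and 30 min minus mean of 15 and 20 min, log2, y axis) against the log2 change at 10 min (x axis) for the 33 genes in dpl1D, lcb4D/lcb5D and JK939a. RPS27A and RPS9A sit at the early-falling, late-rising end in dpl1D and JK939a and RPS20 at the other end in JK939a, and r is -0.75, -0.62 and -0.82 in the 3 panels.

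The deletion strains were then set against JK939a and against each other. Before heat, 0 of 33 genes were called between dpl1D and JK939a, between lcb4D/lcb5D and JK939a or between dpl1D and lcb4D/lcb5D (limma), and 0 had an unadjusted p under 0.05, beside 0.0177%, 0.106% and 0.141% of all genes called. The gene of smallest p was RPS12, which read 11.71 and 12.34 in dpl1D and 12.28 and 12.09 in lcb4D/lcb5D, against 12.64 and 12.64 in JK939a. The dpl1D arrays and the lcb4D/lcb5D arrays lay below both JK939a arrays, with differences of -0.62 ± 0.32, adjusted p = 1 and -0.46 ± 0.32, adjusted p = 1. The next 4 genes of the dpl1D and JK939a comparison were RPS14A, RPS29A, RPS29B and RPS1B, with differences between -0.50 and 0.35. Those of lcb4D/lcb5D and JK939a were RPS22B, RPS28A, RPS10B and RPS13, between -0.34 and -0.27. Between dpl1D and lcb4D/lcb5D they were RPS22B, RPS25A, RPS31, RPS7B and RPS28A, between 0.20 and 0.37.

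Over all 7 times, the difference of dpl1D minus JK939a was above 0 for 33 of 33 genes, with a median of 0.21, but limma called 0, with 6 at an unadjusted p under 0.05, beside 0.0177% of all genes called. Genes read on the same arrays do not give independent signs, and the share of all genes above 0 is not given. RPS1B, which encodes the platform protein eS1, had the smallest p (difference 0.49 ± 0.15, adjusted p = 0.822; 95% interval 0.18 to 0.81). RPS7B, RPS21B, RPS10B and RPS13 followed, with differences of 0.44, 0.33, 0.27 and 0.28. In lcb4D/lcb5D the median difference from JK939a was 0.10, 23 of 33 genes were above 0, and limma called 0, with 4 at an unadjusted p under 0.05, beside 19.5% of all genes called. The smallest p-values were those of RPS1B (0.43 ± 0.15, adjusted p = 0.0503) and RPS26A (0.56 ± 0.20, adjusted p = 0.056), and both were called with replicate number as a block across strains (adjusted p = 0.0289 and 0.0251), beside 31.8% of all genes, or 33.9% with the block within each strain. The count ran from 0 to 4 when single arrays were left out and was above 0 in 21 of the 42 fits. RPS26A at 20 min read 12.41 and 13.32 in lcb4D/lcb5D, against 11.38 and 12.62 in JK939a. RPS9B, RPS2 and RPS9A followed, with differences of 0.45, 0.33 and 0.37. Between dpl1D and lcb4D/lcb5D the median difference was 0.15, and limma called 0 of 33, with 7 at an unadjusted p under 0.05, beside 12.8% of all genes. RPS14A had the smallest p (0.48 ± 0.17, adjusted p = 0.0595), followed by RPS13, RPS28A, RPS28B and RPS20, with differences of 0.33, 0.31, 0.60 and 0.29. With the block across strains RPS14A, RPS13 and RPS28B were called (adjusted p = 0.0155, 0.0498 and 0.0465), and RPS28A as well with the block within each strain (adjusted p = 0.0428), beside 25.3% and 28.3% of all genes. Without 1 array the count was up to 4, and it was above 0 without replicate 1 of lcb4D/lcb5D at 10, 20 or 30 min and without replicate 2 of dpl1D at 25 min.

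The heat response itself was not called different between strains for any of the 33 genes. For the mean heat response limma called 0 in each of the 3 strain pairs, with 1, 0 and 0 at an unadjusted p under 0.05, beside 0%, 0.0177% and 0% of all genes. The median difference in response was 0.36 for dpl1D minus JK939a, 0.31 for lcb4D/lcb5D minus JK939a and 0.06 for dpl1D minus lcb4D/lcb5D. RPS12 had the smallest p against JK939a in both deletions: its response differed by 0.85 ± 0.34, adjusted p = 1 in dpl1D (95% interval 0.15 to 1.55) and by 0.57 ± 0.34, adjusted p = 0.999 in lcb4D/lcb5D (95% interval -0.13 to 1.27). For dpl1D the next were RPS14A, RPS10B, RPS13 and RPS14B, with differences of 0.78, 0.46, 0.45 and 0.60, and for lcb4D/lcb5D RPS9B, RPS2, RPS22B and RPS25B, with 0.86, 0.64, 0.44 and 0.48. Between dpl1D and lcb4D/lcb5D they were RPS14A, RPS26A, RPS20, RPS2 and RPS12, with 0.78, -0.62, 0.35, -0.39 and 0.28. The joint F test over the 6 heat times also called 0 of 33 for each pair, beside 0%, 0.0177% and 0.0354% of all genes. At an unadjusted p under 0.05 the F test held 0, 9 and 0 of the 33 genes, beside 27, 171 and 145 of all 5656. The median standard error of a difference in mean response was 0.49 log2 units. The strain difference of the late change, a comparison added after the values were seen, was called for 0 genes in each pair, with 0, 3 and 1 at an unadjusted p under 0.05 (limma), beside 0%, 0% and 0.0177% of all genes called.

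Other genes of the pathway were counted in the same way. Of the 42 large subunit (RPL) genes measured on single-gene probe sets, 40 were called lower in each strain. Of all genes, 26.6%, 25.2% and 24.5% were called lower in dpl1D, lcb4D/lcb5D and JK939a. The median changes of the RPL genes were -1.47 in dpl1D, -1.61 in lcb4D/lcb5D and -1.77 in JK939a. Of 20 assembly factors of the 40S subunit, 17 were called lower and 0 higher in JK939a, with a median of -2.17. At 10 min in JK939a, when 18.8% of all genes were called lower, 14 of the 33 RPS genes were, with a median of -0.95. Of the 20 assembly factors, 17 were already called lower and 1 higher at that time, with a median of -2.36. Those of smallest p were MRD1, a factor of early pre-ribosomes (-2.77 ± 0.23, adjusted p = 4.81e-10), PNO1, which binds the 3′ end region of the forming 18S rRNA (-3.03 ± 0.33, adjusted p = 3.71e-08), KRR1, an RNA-binding factor (-2.28 ± 0.26, adjusted p = 1.18e-07) and TSR4, a chaperone of the RPS2 protein (-2.06 ± 0.25, adjusted p = 1.94e-07). In dpl1D 18 and in lcb4D/lcb5D 17 of the 20 were called lower, and in lcb4D/lcb5D 1, the kinase gene HRR25, was called higher (0.54 ± 0.19, limma adjusted p = 0.0231). Of 14 regulators of ribosomal protein genes, 1 was called higher and 5 lower in JK939a, with a median of -0.04, beside 21.8% of all genes higher and 24.5% lower. In dpl1D 1 was called higher and 5 lower, beside 20.6% and 26.6% of all genes. In lcb4D/lcb5D 3 were called higher (CRF1, DOT6 and STB3) and 5 lower, beside 19.1% and 25.2%. Without replicate 1 of JK939a before heat, the JK939a median was -0.14 for regulators, -2.34 for assembly factors and -1.83 for RPL genes. Over all genes it was -0.08. Fewer genes of each of these lists were then called lower. The values below are from the fit with all 42 arrays, and which regulators kept their call without that array is not given. TOD6, a repressor of ribosome biogenesis genes, changed by -2.75 ± 0.44, adjusted p = 1.15e-05. STB3, another repressor, changed by 1.22 ± 0.23, adjusted p = 0.000104, RAP1, which binds most ribosomal protein gene promoters, by -0.76 ± 0.16, adjusted p = 0.000352, and IFH1, the coactivator at these promoters, by -0.76 ± 0.21, adjusted p = 0.00401. ASC1, which encodes the RACK1 protein on the head of the 40S subunit, and STM1, a factor that clamps idle ribosomes, changed by -1.37 ± 0.26, adjusted p = 0.000104 and -1.09 ± 0.24, adjusted p = 0.000559.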

How the data were processed

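The arrays are single-colour Affymetrix yeast arrays. The authors normalised the signals by RMA, per the submitters' processing notes, with no version given, and deposited 1 log2 value per probe set and array. The log base is inferred from the range of the deposited values. RMA makes the arrays' distributions nearly equal, so changes are relative to the other transcripts. The deposited table holds 9335 probe sets, of which 60 are controls. Of the rest, 6504 have 1 gene symbol in the platform annotation, 328 several and 2443 none. Each of 5656 genes was represented by its probe set of highest mean, with no filter on dim genes. All genes were fitted with limma 3.58.1 in R 4.3.3, using 21 group means and leaving 21 residual degrees of freedom, and moderated two-sided p-values were adjusted by Benjamini-Hochberg over 5656 genes, with calls at an adjusted p under 0.05. Contrasts compared heat times with the time before heat, successive times, late (25 and 30 min) with middle (15 and 20 min) heat, and strains. Errors are standard errors, and the number of arrays limits the precision. Apart from the joint F test, counts at an unadjusted p are given without the share of all genes at the same threshold.

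Arrays of the same replicate number deviated together: over non-control probe sets the deviations from the group means correlated above 0.1 for 210 of 210 pairs of groups (lowest 0.13, median 0.52), and over the 33 genes for 162 of 210 (lowest -0.56, median 0.28). On the first of these the number pairs the arrays, and it was entered as a block, across strains or within each strain, as an alternative. Other alternatives were the scaling, array weights, the moderation, the threshold, dim genes, the choice of probe set and leaving out single arrays. The fit was tested on simulated data. The genes and lists were chosen with earlier results of these data known. The genes named were the 4 largest and 4 smallest falls in JK939a, up to 5 of smallest p per strain comparison, up to 4 for the late change and the other lists, and the 4 paralogue pairs of largest and 2 of smallest difference, with genes lost or gained under an alternative named as well. Other genes named as examples of the subunit's positions, and RPS14A at 10 min, were chosen after their values were seen. The 22 genes on shared probe sets are summarised in the closing section, and 1 item is not reported here.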

Additional observations from a re-analysis of the deposited data

How the results depend on the processing

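No gene changed the direction of its mean heat response under any alternative. In 99 combinations of a gene and a strain, hybridisation-control centring left 57 no longer past the threshold, and the other alternatives on all arrays at most 5. Under that centring the mean heat response was called for 11 genes in dpl1D, 11 in lcb4D/lcb5D and 17 in JK939a, with a JK939a median of -1.54. Of all 5656 genes, 390, 305 and 351 were called lower in the same comparisons. The counts of the 33 genes under that centring at 10, 15, 20, 25 and 30 min were 1, 5, 19, 19 and 7 in dpl1D and 4, 12, 11, 11 and 0 in lcb4D/lcb5D, and in JK939a 2, 14, 16 and 6 at 10, 20, 25 and 30 min. In JK939a the 15 min count stayed within 1.5 times of the 32 called with the deposited values. Shares of all genes at single times are not given for that centring. The 5 to 10 min step then gave 1 gene in lcb4D/lcb5D and 0 in JK939a, and the late change 0 in JK939a. Cyclic loess gave 10 genes at 10 min in dpl1D and 0 in the 5 to 10 min step and the late change of JK939a. The late change of JK939a also gave 0 with array weights, with trend and robust moderation, with probe sets averaged per gene and at an adjusted p under 0.01. Over all times, dpl1D minus lcb4D/lcb5D gave 1 gene with median centring, array weights or the mean of probe sets, and lcb4D/lcb5D minus JK939a gave 1 without the dimmest 25% of genes. At an adjusted p under 0.01, 3 genes remained called at 10 min in dpl1D and 3 in JK939a, 10 at 30 min in lcb4D/lcb5D, and in the 5 to 10 min step 0 in dpl1D, 4 in lcb4D/lcb5D and 0 in JK939a. Array weights gave 5 in that step of lcb4D/lcb5D and 2 in the 10 to 15 min step of JK939a, and the mean of probe sets gave 9 at 10 min in JK939a. With probe sets without a suffix letter only, 18 of the genes were measured, of which 16, 18 and 18 were called in the mean heat response of dpl1D, lcb4D/lcb5D and JK939a. At 10, 15, 20, 25 and 30 min 3, 14, 17, 16 and 16 were called in dpl1D, 14, 18, 18, 16 and 14 in lcb4D/lcb5D and 6, 18, 18, 18 and 17 in JK939a, and 8 in the 5 to 10 min step of lcb4D/lcb5D, where fewer genes were tested. The cause of the other moves was not tested.

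With the replicate block across strains, the 10 min count in dpl1D was 10, the 5 min count in lcb4D/lcb5D 1, the 10 to 15 min step of JK939a 1, the late change 1, 2 and 3 in dpl1D, lcb4D/lcb5D and JK939a, and the strain difference over all times 2 for lcb4D/lcb5D minus JK939a and 3 for dpl1D minus lcb4D/lcb5D. With the replicate block within each strain these were 12, 1, 4, then 1, 2 and 4, then 2 and 4. The block changed no other count by over 1.5 times. Leaving out 1 array at a time gave 23 to 32, 26 to 33 and 29 to 33 genes in the mean heat response of dpl1D, lcb4D/lcb5D and JK939a, with medians of -1.69 to -1.40, -1.66 to -1.50 and -1.86 to -1.72. At 10 min it gave 2 to 7, 9 to 28 and 2 to 17 genes, at 15 min 18 to 31, 23 to 32 and 28 to 33, at 20 min 29 to 33, 27 to 32 and 30 to 33, at 25 min 22 to 32, 24 to 31 and 28 to 33, and at 30 min 20 to 31, 4 to 28 and 22 to 32, in the same order of strains. The 5 to 10 min step gave 0 to 1, 0 to 19 and 0 to 1, the 10 to 15 min step 0 to 1 in JK939a, the late change 0 to 2, 0 to 1 and 0 to 3, and both strain differences with lcb4D/lcb5D over all times 0 to 4. The other counts were 0 throughout. Each replicate was also taken alone, an alternative chosen after seeing the data. The median mean changes in replicates 1 and 2 were -1.31 and -1.79 in dpl1D, -1.30 and -1.71 in lcb4D/lcb5D, and -1.68 and -1.98 in JK939a. With 2 arrays a group, a group left with 1 array is assumed to vary like the others.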

Other observations

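The 22 RPS genes left out above are read by 21 probe sets that the annotation assigns to several genes at once, so copies such as RPS4A and RPS4B, RPS6A and RPS6B or RPS24A and RPS24B cannot be told apart there. In a limma fit over the 9275 non-control probe sets, 20 of these 21 were called lower in the mean heat response of dpl1D, 21 in lcb4D/lcb5D and 20 in JK939a, beside 18.7%, 17% and 17% of all probe sets. Their median changes were -1.34 in dpl1D, -1.41 in lcb4D/lcb5D and -1.64 in JK939a, with a range in JK939a of -2.73 to -0.53. Their late changes ran from -0.43 to 1.53 in JK939a, with a median of -0.04.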
